A study of Mus musculus with 6 samples.

Results

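A set of 10 phospholipase A2 genes that act in skin was followed through RNA sequencing of mouse epidermis. The members were chosen by gene name, as Pla2g2e, Pla2g2f, Pla2g3, Pla2g4a, Pla2g4b, Pla2g4d, Pla2g4e, Pla2g5, Pla2g7 and Pla2g16 among 47729 genes, and each name matched 1 row (10 of 47729). All samples came from wild type C57BL/6 mice. Epidermis from skin given a gel with AKBA (acetyl-11-keto-β-boswellic acid), a compound of frankincense resin, made up 3 libraries, and epidermis from skin given a control gel without it made up the other 3. Control libraries are also named IMQ in their descriptions, with no expansion of those letters, and the sources used here do not say whether either group had a further treatment. The labels do not tie replicates to separate animals, and every p-value below therefore reflects library-to-library spread that may be technical. Age, sex and duration of treatment were not given either.

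Phospholipases A2 cut the fatty acid from the middle position of a membrane phospholipid and leave a lysophospholipid. When the freed acid is arachidonate, it feeds the cyclooxygenase and lipoxygenase routes to prostaglandins and leukotrienes. The cytosolic enzymes (Pla2g4 genes) act inside the cell, most of them on calcium signals, while the secreted enzymes (Pla2g2, Pla2g3 and Pla2g5) act outside it or on its surface. In skin, group IIF enzyme is known from the upper epidermal layers, group IIE from hair follicles and group IVD from the inflamed human epidermis of psoriasis.

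The libraries held 19066045 to 22760432 counts, and levels are given as normalised CPM (counts scaled to library size) after TMM scaling. The first principal component of all tested genes held 42.1% of the variance. On it every AKBA library (-43.8 to -8.74) lay below every control library (-0.08 to 46.2). AKBA replicate 2 (-43.8) and control replicate 3 (46.2) lay at the ends, and values without these 2 libraries are given where they matter. Leaving out the most extreme library of each group narrows differences along this component. Smaller values without these 2 libraries therefore cannot show whether they are outliers. Markers of other tissues were present beside those of keratinocytes. The 9 fibroblast markers summed to 19358 to 35915 CPM and the 10 skeletal muscle markers to 4347 to 8092 CPM over the 6 libraries, beside 12008 to 34190 CPM for 10 basal keratinocyte markers. In such mixed tissue, fewer cells of a type and less RNA per cell cannot be told apart.

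Most members lie in a pair of gene blocks on GRCm38 (GENCODE M21). Pla2g4b (chr2:120033417-120043030, plus strand), Pla2g4e (chr2:120166412-120245335, minus strand) and Pla2g4d (chr2:120265595-120289197, minus strand) stand within 280749 bases of chromosome 2, with Pla2g4f next to Pla2g4d. Pla2g2f (chr4:138750533-138757626), Pla2g5 (chr4:138799244-138863482) and Pla2g2e (chr4:138877942-138882817) stand in the secreted block of chromosome 4, the first and second on the minus strand. Pla2g4a (chr1:149829618-149961290), Pla2g3 (chr11:3488284-3499350), Pla2g7 (chr17:43568098-43612201) and Pla2g16 (chr19:7557459-7588545) lie alone. All 10 are annotated as protein-coding.

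The start regions of Pla2g4d and Pla2g4e are shown because the AKBA libraries of both neighbours lay below all control libraries, and that of Pla2g5 because it differed in the opposite direction. Each run is 300 bases of RefSeq sequence (GRCm38.p6), 250 before and 50 after the start annotated there, on the gene's own strand. That start need not be the GENCODE gene start. They are chr2:120289020-120289319 (minus) for Pla2g4d, chr2:120245286-120245585 (minus) for Pla2g4e and chr4:138863420-138863719 (minus) for the upstream one of the 2 starts listed for Pla2g5. Capitals mark matches to the motifs named below.
Pla2g4d: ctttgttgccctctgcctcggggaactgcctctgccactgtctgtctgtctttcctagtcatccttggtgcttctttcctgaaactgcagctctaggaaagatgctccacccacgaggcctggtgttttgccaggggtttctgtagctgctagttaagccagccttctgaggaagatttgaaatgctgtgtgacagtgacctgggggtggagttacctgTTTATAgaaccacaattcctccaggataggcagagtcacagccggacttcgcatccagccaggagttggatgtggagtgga
Pla2g4e: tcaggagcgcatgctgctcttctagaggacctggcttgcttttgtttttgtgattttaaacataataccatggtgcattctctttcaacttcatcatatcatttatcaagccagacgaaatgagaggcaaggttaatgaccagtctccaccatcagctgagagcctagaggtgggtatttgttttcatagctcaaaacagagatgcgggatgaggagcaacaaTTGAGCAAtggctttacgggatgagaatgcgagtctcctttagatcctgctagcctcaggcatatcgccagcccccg
Pla2g5: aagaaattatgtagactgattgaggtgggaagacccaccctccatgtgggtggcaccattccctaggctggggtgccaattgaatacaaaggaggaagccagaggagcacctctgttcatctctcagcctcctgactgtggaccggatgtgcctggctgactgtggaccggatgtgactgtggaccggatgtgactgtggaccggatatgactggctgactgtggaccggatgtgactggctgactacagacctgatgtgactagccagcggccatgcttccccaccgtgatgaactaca
Both strands were searched for 8 motifs. The TATA box was searched as TATAAA, the AP-1 motif as TGANTCA and the cyclic AMP response element as TGACGTCA. The E-box was searched as CACGTG, the C/EBP motif as TTGCNNAA, the GC box as GGGCGG and the STAT motif as TTCNNNGAA. The NF-κB motif was searched as well and had no match in any member's window. No marked match in these windows overlapped another. Pla2g4d held TATAAA on the opposite strand, its first base at -31 from the RefSeq start. That motif was found in 13.6% of 32851 mouse start regions of this length. The GENCODE gene of Pla2g4d begins farther upstream, at 120289197 on the minus strand, so this match lies inside it. Pla2g4e held TTGCNNAA on the opposite strand at -27 (10.8% of start regions). The windows of Pla2g5 and of Pla2g2f held none of these letters. Pla2g2e, which did not separate the groups, held 2 matches to TGANTCA, at -87 and 27 (7.81% of start regions had at least 1). These are matches of letters and show no binding.

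Per length, Pla2g2f was the main transcript of the 10 in every library. The deposited FPKM values, which divide counts by depth and gene length, allow members to be compared with each other. Pla2g2f was at 282 ± 75.0 FPKM with AKBA gel and 205 ± 44.1 FPKM with control gel (SD, n = 3 each), followed by Pla2g4e at 21.4 ± 5.09 and 40.6 ± 17.9 FPKM. Pla2g7 came next in both groups (11.9 ± 2.19 and 17.3 ± 1.74 FPKM). Pla2g4d held rank 4 of 10 in the control group (11.8 ± 7.90 FPKM) and rank 8 in the AKBA group (2.10 ± 1.10 FPKM). Pla2g2e, Pla2g16 and Pla2g4a had group means of 4.23 to 6.08 FPKM, which lay above Pla2g4d in the AKBA group and below it in the control group. Pla2g3 was at 2.85 ± 0.316 and 1.79 ± 0.00577 FPKM. The lowest levels were those of Pla2g5 (1.85 ± 0.795 and 0.68 ± 0.363 FPKM) and Pla2g4b (0.44 ± 0.04 and 0.75 ± 0.429 FPKM), whose libraries overlapped in the control group and were apart in the AKBA group. In the control libraries the ranges of Pla2g7 and Pla2g4d overlapped, as did those of each next pair down to Pla2g4a and Pla2g16. In the AKBA libraries Pla2g4d overlapped both of its neighbours in rank, Pla2g3 and Pla2g5, and Pla2g2e overlapped Pla2g16. Those parts of the order are not fixed beyond the spread.

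**Figure D1:**
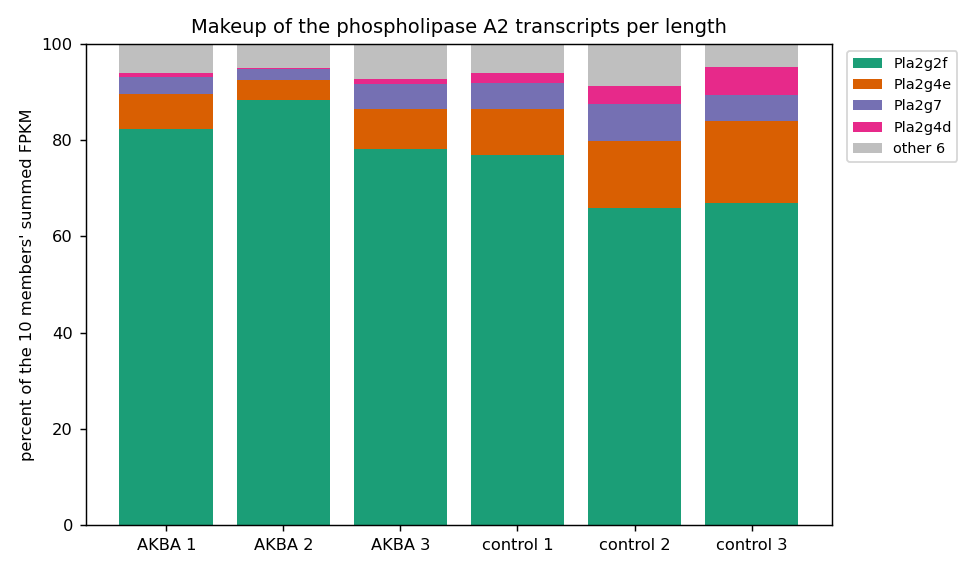
Share of each library's summed phospholipase A2 FPKM (vertical axis, percent of the 10 members) in the 3 AKBA and 3 control libraries. The 4 largest members of the control group are in colour and the other 6 in grey. Pla2g2f held 78.2% to 88.3% in the AKBA libraries and 65.8% to 76.8% in the control libraries, and Pla2g4e held 4.16% to 8.23% and 9.68% to 17.2%.

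The share of each class separated the groups for the cytosolic and the secreted enzymes. The 4 cytosolic members summed to 33.9, 21.7 and 29.0 FPKM in AKBA replicates 1 to 3 and to 38.2, 46.8 and 88.2 FPKM in control replicates 1 to 3. The ranges did not overlap, and control replicate 3 stood far above the other libraries. The 4 secreted members summed to 308, 360 and 210 FPKM with AKBA gel and 229, 166 and 244 FPKM with control gel, with overlap. As a share of all 10 members, the secreted genes held 81.6% to 90.9% with AKBA gel and 68.6% to 79.5% with control gel, and the cytosolic genes 5.49% to 11.3% and 13.3% to 24.8%, both without overlap. These 2 shares largely mirror each other, since Pla2g7 and Pla2g16 held only 3.65% to 9.18% of any library. Most of the secreted sum was Pla2g2f. The 3 secreted members without it summed to 8.84 to 12.5 FPKM with AKBA gel and 6.09 to 11.8 FPKM with control gel, with overlap. Pla2g7 and Pla2g16 together summed to 14.5 to 18.4 FPKM with AKBA gel and 20.8 to 23.4 FPKM with control gel, also without overlap, while their share overlapped. Within a library, Pla2g2f stood 9.50 to 21.2 times above Pla2g4e in FPKM with AKBA gel and 3.90 to 7.94 times above it with control gel. These sums and ratios are descriptions of the chosen members and were not tested. Pla2g4f, a cytosolic gene with a higher FPKM than Pla2g4e in every library, is not a member and is left out of the sums.

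Among the cytosolic genes, Pla2g4d had the largest fold difference. Pla2g4d encodes cytosolic phospholipase A2 delta. It was at 9.81, 3.14 and 9.93 CPM in AKBA replicates 1 to 3 and at 21.0, 31.5 and 83.5 CPM in control replicates 1 to 3. No AKBA library reached the level of a control library, with AKBA replicate 2 the lowest and control replicate 3 the highest of the 6. The means were 7.62 ± 3.89 and 45.3 ± 33.4 CPM (SD, n = 3 each), a 5.91-fold lower level with AKBA gel (log2 fold change -2.56 ± 0.60, SE, edgeR). This did not pass edgeR's quasi-likelihood test over all 17023 genes tested (Benjamini-Hochberg adjusted p = 0.331). It passed the DESeq2 Wald test (log2 fold change -2.58, adjusted p = 0.0381), and the authors' deposited table calls it lower (log2 fold change -2.43, adjusted p = 7.49e-05). The edgeR log2 fold change was -1.78 with control replicate 3 left out and -1.41 with AKBA replicate 2 left out as well.

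Pla2g4e, a calcium-dependent N-acyltransferase that makes the precursors of N-acylethanolamines, was the most abundant cytosolic member. It was at 190, 116 and 138 CPM with AKBA gel and at 190, 222 and 463 CPM with control gel. The groups only just failed to overlap, since AKBA replicate 1 (189.8 CPM) and control replicate 1 (189.9 CPM) had the same level to within 0.2 CPM, and control replicate 3 stood apart from all others. The log2 fold change was -0.98 ± 0.35 (edgeR adjusted p = 0.339). Without control replicate 3 it was -0.48, and without AKBA replicate 2 as well -0.33. In the authors' deposited table the value was -0.93 with an adjusted p of 0.0683, above their threshold.

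Pla2g4b, the beta isoform, is a weakly expressed neighbour in the same block. It was at 2.85, 2.34 and 2.39 CPM with AKBA gel and at 2.52, 3.23 and 7.90 CPM with control gel. The groups overlapped, and control replicate 3 alone stood out. The log2 fold change of -0.85 ± 0.43 (edgeR adjusted p = 0.439) became -0.19 without that library. It rests on 44 to 165 counts a library. Pla2g4b overlaps Gm28042 on the same strand (0 to 3 counts) and Sptbn5 on the opposite strand (103 to 176 counts), and since no source states that counting used strand, reads from the overlap with Sptbn5 cannot be told apart.

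Pla2g4a, the broadly expressed enzyme that releases arachidonate for prostaglandin synthesis, showed the smallest spread of the cytosolic genes. It was at 26.0 to 27.3 CPM in the AKBA libraries and at 25.5, 27.9 and 36.3 CPM in the control libraries, with overlap. Its log2 fold change was -0.16 ± 0.15 (edgeR adjusted p = 0.658), and 0.00 without control replicate 3. Control replicate 3 was thus the highest library for all 4 cytosolic genes and for Pla2g7, 5 of the 10 members, where it was highest for 21.4% of all genes tested. AKBA replicate 2 was the lowest for 4 members (Pla2g4b, Pla2g4d, Pla2g4e and Pla2g7), beside 21.8% of all genes tested.

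**Figure D2:**
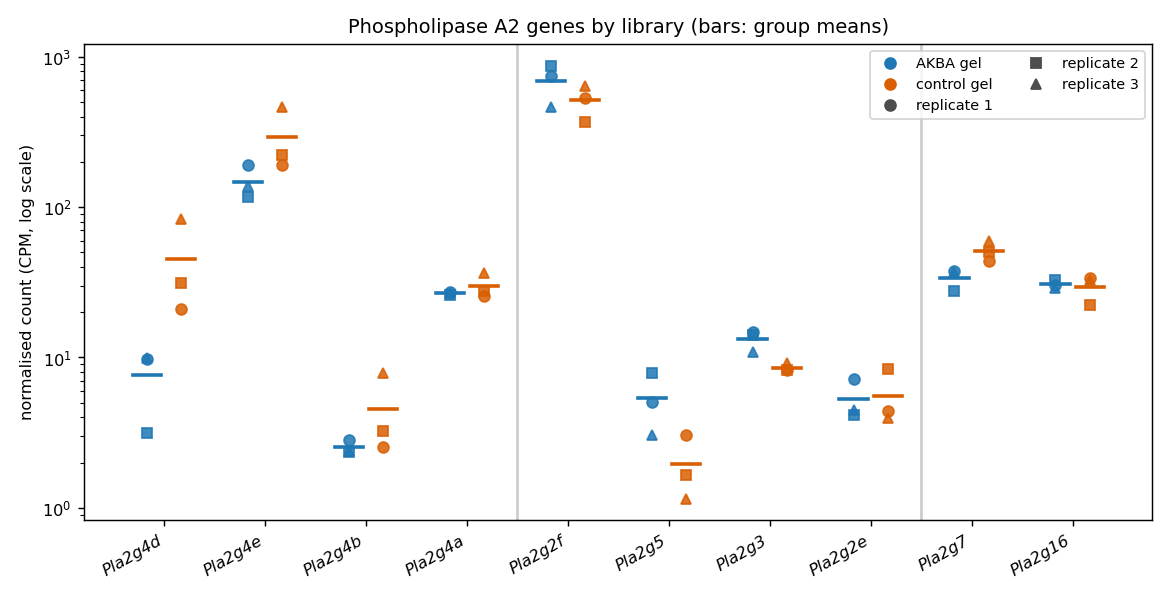
Normalised counts (CPM, log scale) of the 10 genes in each library, AKBA gel in blue and control gel in orange, with symbols for the replicate and bars for group means. Cytosolic genes stand at the left, secreted genes in the middle and the other 2 at the right. The AKBA libraries lie below all control libraries for Pla2g4d, Pla2g4e and Pla2g7 and above them for Pla2g5 and Pla2g3.

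Among the secreted genes, Pla2g5 and Pla2g3 lay higher in the AKBA libraries and Pla2g2f and Pla2g2e overlapped. Pla2g5, group V enzyme, known from macrophages and heart, was at 5.05, 7.92 and 3.07 CPM with AKBA gel and at 3.05, 1.66 and 1.15 CPM with control gel. The groups did not overlap, but AKBA replicate 3 and control replicate 1 were almost equal, and AKBA replicate 2 was the highest. The log2 fold change was 1.45 ± 0.45 (edgeR adjusted p = 0.334, DESeq2 adjusted p = 0.0647). The authors' deposited table calls Pla2g5 higher, close to the threshold (log2 fold change 1.32, adjusted p = 0.0494). The values rest on 24 to 149 counts a library. The log2 fold change was 1.05 with AKBA replicate 2 left out and 0.79 with control replicate 3 left out as well. Pla2g2a, the group IIA gene that lies inside Pla2g5 on the opposite strand and is known to be disrupted in C57BL/6 mice, had 0 counts in all 6 libraries, which allows up to 0.128 to 0.159 CPM a library (3 counts, counting error only).

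Pla2g3, related to the phospholipase of bee venom, had the narrowest control range of the 10 members. It was at 14.8, 14.2 and 10.9 CPM with AKBA gel and at 8.24, 8.21 and 9.15 CPM with control gel. All AKBA libraries lay above all control libraries, and the 3 control libraries were within 1.11 times of each other. The means were 13.3 ± 2.08 and 8.53 ± 0.536 CPM (SD, n = 3 each), a log2 fold change of 0.64 ± 0.16 (edgeR adjusted p = 0.331, DESeq2 adjusted p = 0.0718). With any 1 library left out it stayed between 0.56 and 0.78, and with both AKBA replicate 2 and control replicate 3 left out it was 0.65. Inpp5j overlaps the gene on the opposite strand and had 16 to 54 counts beside 173 to 302 counts for Pla2g3.

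Pla2g2f was at 745, 874 and 466 CPM with AKBA gel and at 534, 369 and 640 CPM with control gel. AKBA replicates 1 and 2 were the highest libraries, while AKBA replicate 3 lay below control replicates 1 and 3. The log2 fold change of 0.43 ± 0.28 was not past the threshold (edgeR adjusted p = 0.534) and ran from 0.24 to 0.66 with 1 library left out. Pla2g2e was at 4.15 to 7.21 CPM with AKBA gel and 3.93 to 8.38 CPM with control gel (log2 fold change -0.08 ± 0.35, edgeR adjusted p = 0.944). Its direction changed with the library left out (-0.37 to 0.34), so no direction can be given.

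Of the last 2 members, Pla2g7 separated the groups. Pla2g7 encodes the secreted acetylhydrolase that inactivates platelet-activating factor and is known from macrophages. It was at 37.4, 27.6 and 36.9 CPM with AKBA gel and at 43.8, 50.6 and 59.2 CPM with control gel. The groups did not overlap, and AKBA replicate 2 was the lowest. The log2 fold change was -0.59 ± 0.16 (edgeR adjusted p = 0.331, DESeq2 adjusted p = 0.0765), from -0.68 to -0.46 with 1 library left out and -0.34 without AKBA replicate 2 and control replicate 3. Pla2g16, a phospholipase first described in adipose tissue, was at 29.0 to 33.0 CPM with AKBA gel and 22.2 to 33.8 CPM with control gel (log2 fold change 0.06 ± 0.17, edgeR adjusted p = 0.912).

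**Figure D3:**
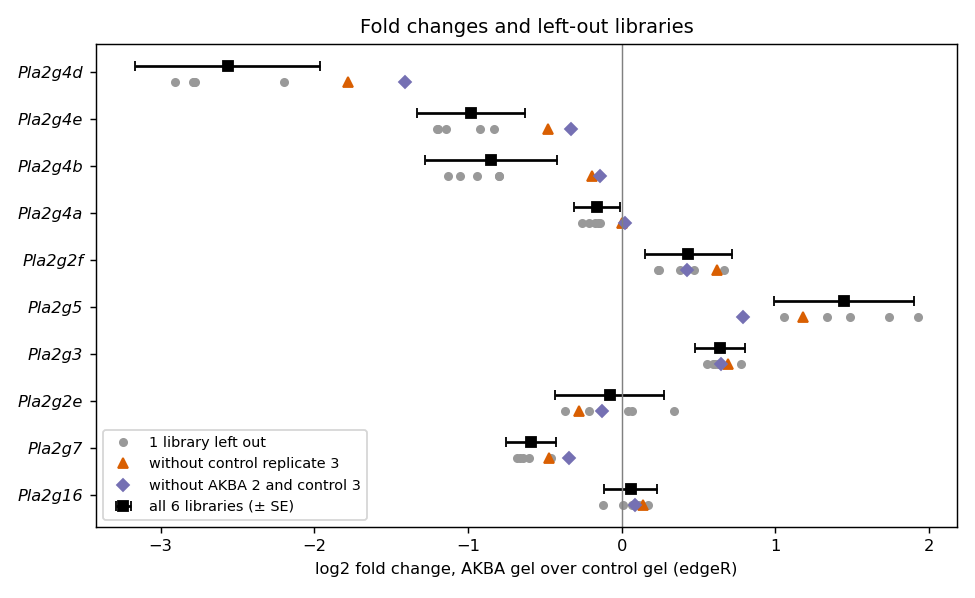
Log2 fold changes (AKBA gel relative to control gel) for the 10 genes, as black squares with their SE for all 6 libraries and as smaller points with libraries left out. The points without control replicate 3 (orange) lie nearer to 0 for Pla2g4d, Pla2g4e and Pla2g4b, while those of Pla2g3 stay between 0.56 and 0.78.

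All 10 members passed the low-count filter. By edgeR 0 of them passed the adjusted threshold of 0.05, as did 0 of the 17023 genes tested (0%). At an unadjusted p under 0.05 edgeR gave 5 of 10 members (Pla2g4d, Pla2g4e and Pla2g7 lower, Pla2g3 and Pla2g5 higher), beside 13.5% of all genes tested (7.01% lower and 6.45% higher). The same 5 members had groups that did not overlap in CPM, beside 18.4% of all genes tested (9.1% with AKBA gel below and 9.28% above), and in the deposited FPKM, beside 17.4%. The DESeq2 Wald test called 1 of 10 (Pla2g4d, lower), beside 1.68% of 17357 genes in either direction and 1.17% lower. The authors' deposited table calls 2 of 10, beside 0.572% of its 47729 genes (0.331% lower and 0.241% higher). Only 28595 of those genes had a count in any library, so this share has a wider base than those above and is lower for it. Since the members were chosen with earlier results of these data known, these shares are descriptions. Without AKBA replicate 2 and control replicate 3, Pla2g3 and Pla2g4d had an unadjusted p under 0.05 (2 of 10, beside 3.74% of genes). Without control replicate 3 alone there were 4 of 10 (beside 7.48%) and without AKBA replicate 2 alone 3 of 10 (beside 7.19%). The median log2 fold change of the 10 members was -0.12, beside 0.00 over all genes tested.

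The tested neighbours in each block had values of both signs. In the cytosolic block the 4 Pla2g4 genes and Ehd4, an endocytic ATPase gene, had negative log2 fold changes. Pla2g4f, which lies beside Pla2g4d and is another abundant cytosolic enzyme, was at 161, 182 and 115 CPM with AKBA gel and at 156, 160 and 290 CPM with control gel (log2 fold change -0.40 ± 0.28, edgeR adjusted p = 0.553). The groups overlapped, and control replicate 3 again was the highest. Ehd4 was at 102 ± 10.9 against 137 ± 27.1 CPM (-0.42 ± 0.16) with no overlap, and the spectrin gene Sptbn5 was at 6.85 ± 1.56 against 5.33 ± 0.415 CPM (0.36 ± 0.21). In the secreted block Pla2g2d, known from lymphoid dendritic cells, was at 6.99 ± 1.51 against 7.62 ± 1.49 CPM (-0.12 ± 0.23), between Pla2g2f and Pla2g5 with their positive values.

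**Figure D4:**
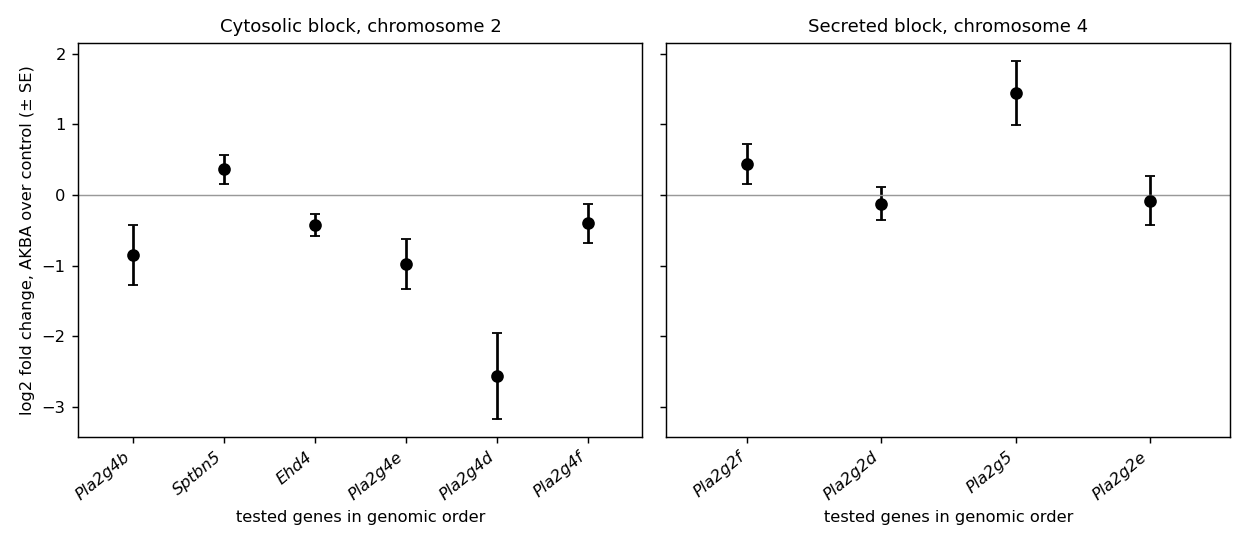
Log2 fold changes with AKBA gel relative to control gel (vertical axis, bars are SE) for the tested genes of the cytosolic block on chromosome 2 (left) and the secreted block on chromosome 4 (right), in genomic order. Pla2g4d at -2.56 and Pla2g5 at 1.45 are the points farthest from 0. Pla2g4d stands between Pla2g4e at -0.98 and Pla2g4f at -0.40, and Pla2g5 between Pla2g2d at -0.12 and Pla2g2e at -0.08.

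Markers of keratinocyte state were set beside the members. The 11 markers of activated keratinocytes, led by the keratin genes Krt16 and Krt6a, summed to 6578, 2102 and 6235 CPM in AKBA replicates 1 to 3 and to 8544, 20886 and 36559 CPM in control replicates 1 to 3. The groups did not overlap, and the lowest and highest libraries were those of Pla2g4d. All 11 were detected and had negative log2 fold changes (median -2.15), 8 of them at an unadjusted p under 0.05 by edgeR. Over all 17023 genes tested, 7.01% were lower and 6.45% higher at that level, and 8441 had negative log2 fold changes. The 12 suprabasal markers, led by Krt1 and Krt10, summed to 59921, 69904 and 37932 CPM with AKBA gel and 42878, 28270 and 34769 CPM with control gel, and AKBA replicate 2 and control replicate 2 were their highest and lowest libraries, as for Pla2g2f. Of the 12 suprabasal markers, 4 were higher and 0 lower at an unadjusted p under 0.05 by edgeR. The activated keratinocyte list shares S100a8 and S100a9 with the neutrophil list. All 7 tested neutrophil markers of 10 had negative log2 fold changes (median -0.61). Of these, 3 were at an unadjusted p under 0.05 by edgeR, beside 7.01% of all genes tested that were lower. The neutrophil list, led by S100a9 and S100a8, summed to 314 to 851 CPM with AKBA gel and 719 to 3412 CPM with control gel, with overlap, and its defining marker Ly6g had 0 counts in all libraries. All 9 sebaceous gland markers, led by Far2 and Elovl3, had positive log2 fold changes (median 0.69). Of these, 2 were at that level, beside 6.45% of all genes tested that were higher. The 9 summed to 766 to 1547 CPM with AKBA gel and 399 to 820 CPM with control gel, with overlap. The part of these cells and cell states in the values of the members was not tested.

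Other cell types were set beside the members known from them. The 10 macrophage markers, led by Lyz2 and Mrc1, summed to 1666 to 1801 CPM with AKBA gel and 1868 to 2555 CPM with control gel, without overlap, and all 10 had negative log2 fold changes (median -0.37), beside -0.59 for Pla2g7 and 1.45 for Pla2g5, both known from macrophages. Of the 10 macrophage markers, 6 were lower at an unadjusted p under 0.05 by edgeR, beside 7.01% of all genes tested. For Pla2g3, known from mast cell maturation, the 8 tested mast cell markers of 9, led by Mcpt4 and Cpa3, had negative log2 fold changes. At that level 1 mast cell marker was lower, and 0 hair follicle and 0 adipocyte markers differed. The mast cell list summed to 96.9 to 166 CPM with AKBA gel and 156 to 192 CPM with control gel. The 13 hair follicle markers, led by Tchh and Krt71, summed to 89.2, 1078 and 2419 CPM in AKBA replicates 1 to 3 and to 383, 3356 and 163 CPM in control replicates 1 to 3. Control replicate 2, the highest for hair follicle markers, was also the highest for Pla2g2e, but AKBA replicate 1, next for Pla2g2e, was the lowest for the markers. The 9 adipocyte markers, led by Lpl and Cfd, summed to 1163 to 1399 CPM with AKBA gel and 961 to 1522 CPM with control gel, with overlap as for Pla2g16. None of the markers in these 4 lists was at 0 in all libraries, and the part of these cells in the results was not tested.

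**Figure D5:**
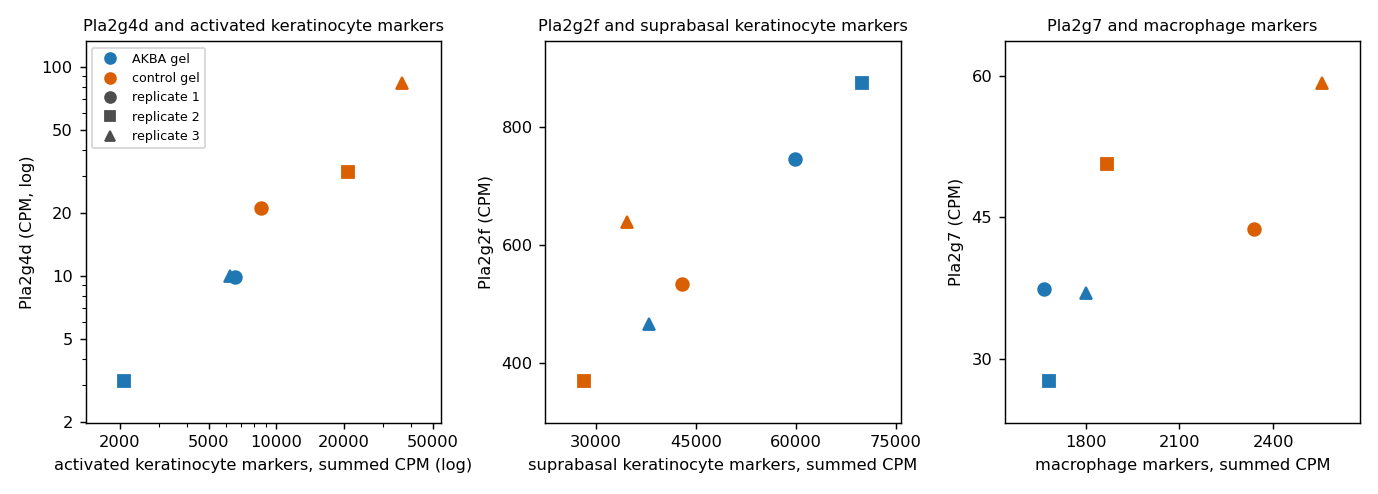
Level of a member (vertical axis, CPM) against the summed CPM of a marker list in the same library for Pla2g4d and activated keratinocyte markers (both axes log), Pla2g2f and suprabasal markers, and Pla2g7 and macrophage markers (linear axes that do not start at 0). Each point is 1 library. Control replicate 3 (36559 CPM) and AKBA replicate 2 (2102 CPM) hold the ends of the first panel.

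No gene of the wider pathway passed edgeR's adjusted threshold, so the counts that follow are of unadjusted p under 0.05. The background over all genes tested was 13.5% (7.01% lower and 6.45% higher). Of 22 other phospholipase A2 and related genes 16 were tested, with 0 lower and 1 higher at that level and a median log2 fold change of -0.0046. The higher one was Pnpla3, a lipase of lipid droplets (57.2 ± 8.39 against 42.4 ± 7.73 CPM, 0.43 ± 0.17). Pafah1b2, a catalytic subunit of the intracellular platelet-activating factor acetylhydrolase, was at 76.3 ± 8.13 against 91.3 ± 7.27 CPM (-0.26 ± 0.12), and the triglyceride lipase gene Pnpla2 at 123 ± 13.0 against 125 ± 15.8 CPM. Pla2g1b, Pla2g2a, Pla2g10 and Pla2g12b had no count in any library. Of 3 genes for a receptor and regulators, 0 reached that level. Anxa1, known as an inhibitor of phospholipase A2 activity, was at 513 ± 102 against 651 ± 262 CPM, Plaa at 73.6 ± 5.79 against 79.0 ± 9.50 CPM and the receptor Pla2r1 at 21.1 ± 5.41 against 18.6 ± 2.68 CPM.

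The enzymes and receptors of the products were counted by route, and the routes were not tested against each other. In the cyclooxygenase route 5 of 13 were lower at an unadjusted p under 0.05 by edgeR and 0 higher (median -0.09). Over all genes tested, 7.01% were lower and 6.45% higher at that level. Ptgs2, the inducible cyclooxygenase, was at 0.687, 1.12 and 1.02 CPM with AKBA gel and at 1.14, 14.5 and 7.33 CPM with control gel, so that control replicate 1 was at the level of the AKBA libraries (log2 fold change -3.02 ± 0.81, edgeR adjusted p = 0.331). Ptges, prostaglandin E synthase, was at 115 ± 4.45 against 188 ± 60.6 CPM (-0.71 ± 0.22), and Tbxas1, thromboxane synthase, at 5.53 ± 0.397 against 10.5 ± 2.96 CPM (-0.92 ± 0.23, DESeq2 adjusted p = 0.0351). The constitutive Ptgs1 was at 92.2 ± 28.5 against 90.5 ± 20.7 CPM. In the lipoxygenase route 2 of 13 were lower and 1 higher (median 0.03). The barrier lipoxygenase genes Alox12b (111 ± 40.4 against 164 ± 86.4 CPM) and Aloxe3 (147 ± 67.8 against 103 ± 25.9 CPM) had overlapping groups. Alox12e, an epidermal lipoxygenase, was at 85.1 ± 13.5 against 38.7 ± 28.8 CPM (1.14 ± 0.45), and the leukotriene B4 receptor gene Ltb4r1 at 16.4 ± 1.06 against 27.6 ± 11.5 CPM (-0.75 ± 0.30). The groups of Ltb4r1 overlapped, with control replicate 1 (15.3 CPM) below all AKBA libraries. Those of Alox12e did not overlap, but control replicate 1 (71.9 CPM) stood near the AKBA libraries (76.9 to 101 CPM).

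Over all genes tested, 7.01% were lower and 6.45% higher at an unadjusted p under 0.05 by edgeR. Of 18 genes for lysophospholipids and platelet-activating factor, 4 were lower and 2 higher at that level (median 0.01). The lower ones were Gpr132 (log2 fold change -0.76), Mboat1 (-0.76, with overlapping groups), Lpar5 (-0.59) and Lpcat1 (-0.47). The higher ones were the acyltransferase genes Lpcat2, which makes platelet-activating factor (29.5 ± 3.06 against 21.7 ± 1.90 CPM, log2 fold change 0.45 ± 0.13), and Mboat2 (90.8 ± 26.0 against 49.8 ± 12.5 CPM, 0.87 ± 0.26). The abundant acyltransferases Lpcat3 (105 ± 27.3 against 92.3 ± 5.04 CPM) and Mboat7 (75.7 ± 10.8 against 68.2 ± 2.83 CPM) had overlapping groups. Of 12 genes of endocannabinoids and of N-acylethanolamines, whose precursors Pla2g4e makes, 0 were lower and 1 higher (median 0.03). That gene was Faah, the hydrolase of anandamide, at 78.2, 66.6 and 51.6 CPM with AKBA gel and 42.4, 28.6 and 27.6 CPM with control gel (log2 fold change 0.995 ± 0.214, edgeR adjusted p = 0.331, DESeq2 adjusted p = 0.00902). The groups did not overlap. Mgll, monoacylglycerol lipase, was at 604 ± 234 against 351 ± 122 CPM (0.78 ± 0.34), and Abhd12 at 110 ± 6.15 against 109 ± 15.0 CPM.

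The genes whose levels followed the most abundant members most closely were found over the 6 libraries by Pearson's r of log2 CPM among 12261 tested genes with a mean of at least 5 CPM. For Pla2g2f they were 4930438A08Rik (r = 0.998), Smagp (0.997) and Mrpl14 (0.996), and 191 genes had r above 0.95. For Pla2g4e they were Gm7336 (r = 0.997), Blcap (0.996) and Serpina9 (0.995), with 151 genes above 0.95. With 6 libraries so many genes reach such values that the likeness is a description only. Of the 3 nearest to Pla2g4e, Serpina9 differed most between groups (33.1 ± 5.24 against 56.1 ± 19.5 CPM, log2 fold change -0.76).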

How the data were processed

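RNA of mouse epidermis (separated with Dispase II, extracted with TRIzol and made into TruSeq libraries, per the labels' protocols) was counted in 3 AKBA gel and 3 control gel libraries. The authors deposited whole-number counts and FPKM values per gene and library. They also deposited a comparison (log2 fold change, p-value, adjusted p-value), whose test was not given in the sources used here. Every gene called in it had an adjusted p under 0.05 and at least a 2-fold change. CASAVA 1.8, RSEM, edgeR and build GRCm38 are named in the submitters' processing notes without their roles.

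Counts were used as deposited. Fold changes came from edgeR 4.0.16 in R 4.3.3 (TMM scaling, default low-count filter, 17023 of 47729 genes, quasi-likelihood F test, 2-sided, Benjamini-Hochberg adjustment over all tested genes, threshold 0.05). The SE is the log2 fold change divided by the square root of F. DESeq2 1.42.0 was an alternative, beside other scaling, filters, a replicate block and left-out libraries. The procedure was run on simulated counts with the same set spread for every gene. That run does not show how it performs at the spread of these libraries. FPKM served to compare members and CPM to compare groups. No pair of replicates was as alike as a repeat of 1 library would be (chi-square per degree of freedom 28.3 to 83.9), and each counted as 1 sample. The depth sets 3 counts at 0.128 to 0.159 CPM, for counting error only.

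The members, lists and alternatives were chosen with earlier results of these data known, so no list was tested as a set. All members were named, and of each pathway list the 2 most abundant genes and the 2 with the smallest p, since none passed the threshold. The lower genes of the lysophospholipid list were named as well. The genes named for likeness were the 3 with the highest r. Promoter sequences were found for 8 of 10 members (Pla2g16 under its RefSeq symbol Plaat3). Flg, which names 7 rows of the table, was taken by its GENCODE identifier. A gene of the macrophage list is not reported here and was left out of its sums. Protein sequences were not analysed here.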

Additional observations from a re-analysis of the deposited data

How the results depend on the processing

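By edgeR with all 6 libraries 0 genes and 0 of the 10 members passed the adjusted threshold, and this held for both with other size factors and with the looser or stricter filter. The DESeq2 Wald test called 292 genes (203 lower, 89 higher) and 1 member, Pla2g4d. With 1 library left out edgeR called 0 to 14 genes (14 without control replicate 1) and 0 members. The direction turned for members whose values were close to 0. With 1 library left out, the log2 fold change of Pla2g2e ran from -0.37 to 0.34 (0.07 without AKBA replicate 2, 0.04 without AKBA replicate 3, 0.34 without control replicate 2), that of Pla2g16 from -0.12 (without control replicate 2) to 0.17, and that of Pla2g4a from -0.26 to 0.0026 (without control replicate 3). Without both AKBA replicate 2 and control replicate 3, Pla2g4a was at 0.021. The cause was not tested. The other 7 members kept their direction under every alternative that gave a value, and the stricter filter of 5 CPM in 3 libraries gave none for Pla2g2e, Pla2g4b and Pla2g5. The deposited FPKM moved no ratio of group means by more than the spread between replicates. The deviations of same-numbered libraries from their group means had r = 0.07, 0.02 and -0.33, beside -0.48 to 0.43 for differently numbered ones. Deviations from a mean of 3 libraries constrain each other, so these values cannot decide whether the numbers pair the libraries. The labels state no pairing. A replicate block called 0 genes and 0 members, with 1857 genes at an unadjusted p under 0.05 in place of 2291. The counts of 24 to 165 a library for Pla2g5 and Pla2g4b limit the precision of these 2 genes.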
